A study of Mus musculus with 2 samples.

Results

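The genes described here are 27 genes of sterol synthesis and its control by the transcription factor SREBP2, taken by symbol from the 27998 genes listed for mouse islet cells. They comprise 8 early-step enzymes, 12 late-step enzymes, 6 regulators and transport genes, and Acat1, a mitochondrial thiolase that was kept outside the sums. All 27 symbols were found. The cells came from wild-type C57BL/6J mice, a common inbred strain, that for 6 weeks from weaning ate either regular chow (4 mice) or a 60% high fat diet (HFD, 5 mice). The islets of both groups were kept in culture overnight before they were dispersed, and the mice of a diet were pooled into 1 library with no map from cells to mice. Single cells were captured in droplets (10x Genomics v2) and RNA molecules were counted at their 3' ends by molecular tags (UMIs). Neither diet has a second library, so there is no replicate and no test of diet, every value describes these 2 libraries, and all intervals are 95% intervals that cover counting error only.

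Cholesterol is built from acetyl-CoA. The early steps make mevalonate and turn it into isoprenoid pyrophosphates, which also feed protein prenylation and ubiquinone. The late steps join these into squalene, close the rings to lanosterol and trim lanosterol to cholesterol. The precursor of SREBP2 sits in the endoplasmic reticulum with its escort Scap, and Insig proteins hold the pair there while membrane sterol is plentiful. When sterol falls, the pair moves to the Golgi apparatus, where SREBP2 is cleaved and its released part enters the nucleus and raises most genes of the pathway. In beta cells the cholesterol content of membranes is known to bear on insulin granules and their exocytosis.

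SREBP proteins bind sterol regulatory elements next to sites of the factor NF-Y, which recognises CCAAT boxes, so the promoter letters of the members on which the results turn are shown here. Promoter windows (250 bases before to 50 after a gene's start) from RefSeq, build GRCm38.p6, were on hand for 22 of the 27 genes. The table holds no entry for Fdps, Acat1, Fdft1, Sqle and Stard4. The 140 bases just before the start are printed 5' to 3' on the strand of the gene, with CCAAT or its reverse complement ATTGG, and TCACNCCAC on either strand, in capitals. Hmgcs1 (chr13:119690211-119690350, plus strand), Idi1 (chr13:8885466-8885605, plus), Cyp51 (chr5:4104698-4104837, minus) and Msmo1 (chr8:64733579-64733718, minus) were higher in HFD alpha cells. Pmvk (chr3:89454401-89454540, plus) and Ebp (chrX:8193513-8193652, minus) were lower in HFD beta cells, and Mylip (chr13:45389602-45389741, plus) went opposite ways in these types. Pmvk has 2 starts in the promoter set and the window of the first is printed. Which start these cells use was not tested.
Hmgcs1: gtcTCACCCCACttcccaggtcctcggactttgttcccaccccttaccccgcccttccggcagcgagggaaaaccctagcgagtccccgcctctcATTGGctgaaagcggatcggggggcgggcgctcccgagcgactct
Idi1: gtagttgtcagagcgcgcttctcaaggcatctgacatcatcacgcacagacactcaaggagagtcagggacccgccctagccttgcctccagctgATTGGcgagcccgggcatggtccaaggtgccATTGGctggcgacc
Cyp51: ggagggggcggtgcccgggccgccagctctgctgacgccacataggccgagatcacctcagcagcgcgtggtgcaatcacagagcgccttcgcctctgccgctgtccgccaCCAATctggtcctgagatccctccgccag
Msmo1: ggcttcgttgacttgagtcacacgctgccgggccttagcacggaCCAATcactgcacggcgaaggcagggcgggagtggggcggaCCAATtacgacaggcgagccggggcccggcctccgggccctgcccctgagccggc
Pmvk: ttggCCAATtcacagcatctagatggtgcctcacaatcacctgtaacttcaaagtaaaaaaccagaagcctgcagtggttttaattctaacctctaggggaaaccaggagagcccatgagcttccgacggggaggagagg
Ebp: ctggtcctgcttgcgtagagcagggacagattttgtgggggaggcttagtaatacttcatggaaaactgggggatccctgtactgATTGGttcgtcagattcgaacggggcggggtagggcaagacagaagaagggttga
Mylip: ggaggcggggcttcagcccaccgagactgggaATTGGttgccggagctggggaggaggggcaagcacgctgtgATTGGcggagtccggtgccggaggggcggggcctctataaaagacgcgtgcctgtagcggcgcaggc

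All 7 windows held at least 1 CCAAT box on either strand. In Hmgcs1 its first base lay at -45, counted back from the start, and TCACCCCAC began at -137. Idi1 had boxes at -45 and -14, Msmo1 at -96 and -55 and Mylip at -108 and -67. The single boxes in these windows lay at -29 in Cyp51, at -55 in Ebp and at -136 in Pmvk. Over the full 250 bases before the start, 20 of the 22 genes (90.9%) had CCAAT on either strand, against 37.5% of 27025 genes and 39.5% of 17492 protein-coding genes. Repeats were also more frequent, with 13 of 22 genes (59.1%) holding 2 or more boxes against 11.5% of all genes. Acat2 and Scap held none. TCACNCCAC was found in Hmgcs1 only (4.55% of the 22, against 1.22% of all genes). These matches describe letters and not binding, and genes higher and lower in the HFD library shared the box.

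The chow library held 6509 barcodes and 89292222 UMIs and the HFD library 4539 barcodes and 68544729 UMIs, of which 6110 and 4188 cells were kept. Types were set by the share of hormone UMIs, in this order: beta cells (insulin), alpha cells (glucagon), delta cells (somatostatin) and PP cells (pancreatic polypeptide), and then endothelial cells by vessel genes. Chow and HFD cells numbered 4369 and 2953 (beta), 743 and 376 (alpha), 447 and 373 (delta), 197 and 154 (PP), and 168 and 120 (endothelial). Median UMIs per cell were higher in the HFD library in beta (14646 and 16696), alpha (8369 and 10858), delta (7935 and 9295) and PP cells (13999 and 14954), and lower in endothelial cells (7186 and 6508). The marker lists include the hormones and vessel genes that set the types. Without hormones the beta, alpha and delta lists summed highest in their own type, but the PP list stood at 219.6 and 254 CPM in PP cells and higher, at 278 and 329 CPM, in alpha cells. The delta marker Lepr had no count in delta cells. Of the vessel genes that the rule did not use, Pecam1 had 823 and 999 CPM and Cdh5 819 and 856 CPM in endothelial cells. Ppy made up at least 1% of UMIs in 357 of 447 chow and 295 of 373 HFD delta cells, so this class also holds cells with much PP hormone RNA. The libraries shared 45 barcode sequences (0.691% of chow and 0.991% of HFD barcodes).

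A level is given as counts per 1000000 UMIs of the type (CPM) and serves to compare a gene between libraries or types, not one gene with another. Where a pair of values is given, chow comes first. A relative log2 ratio is the log2 of HFD over chow CPM, with 0.5 counts added, minus the median of that ratio over all genes of the type with a summed count of at least 50. This median was 0.20 in beta cells, -0.01 in alpha, 0.08 in delta, 0.09 in PP and 0.03 in endothelial cells. A gene with a summed count of at least 50 is called measured, and one beyond 0.58 on the log2 scale (1.5-fold) is called past the fold.

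Sterol synthesis genes were on balance higher in the HFD library in alpha cells, while in beta cells single enzymes were lower and the share of members past the fold lay near that of all genes. In alpha cells 6 of 26 measured members were higher past the fold (Hmgcs1, Idi1, Fdps, Sqle, Cyp51 and Msmo1), or 23.1% against 4.50% of 8927 genes, and 1 was lower (Mylip), or 3.85% against 4.92%. In beta cells 3 of 27 were lower (Pmvk, Fdps and Ebp), or 11.1% against 9.12% of 12242 genes, and 1 was higher (Mylip), or 3.70% against 4.45%. The median relative ratio of the members was 0.30 in alpha cells, with 21 above and 5 below the all-gene median, and -0.11 in beta cells, with 8 above and 19 below. On the CPM ratio without the all-gene median, 18 members lay above 0 and 9 below in beta cells, so the weak differences there depend on the scale. The same change of scale moved the share of higher among all past-fold genes in beta cells from 32.8% to 68.8%, and leaving hormone genes out of the totals moved it to 64.7%.

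**Figure D1:**
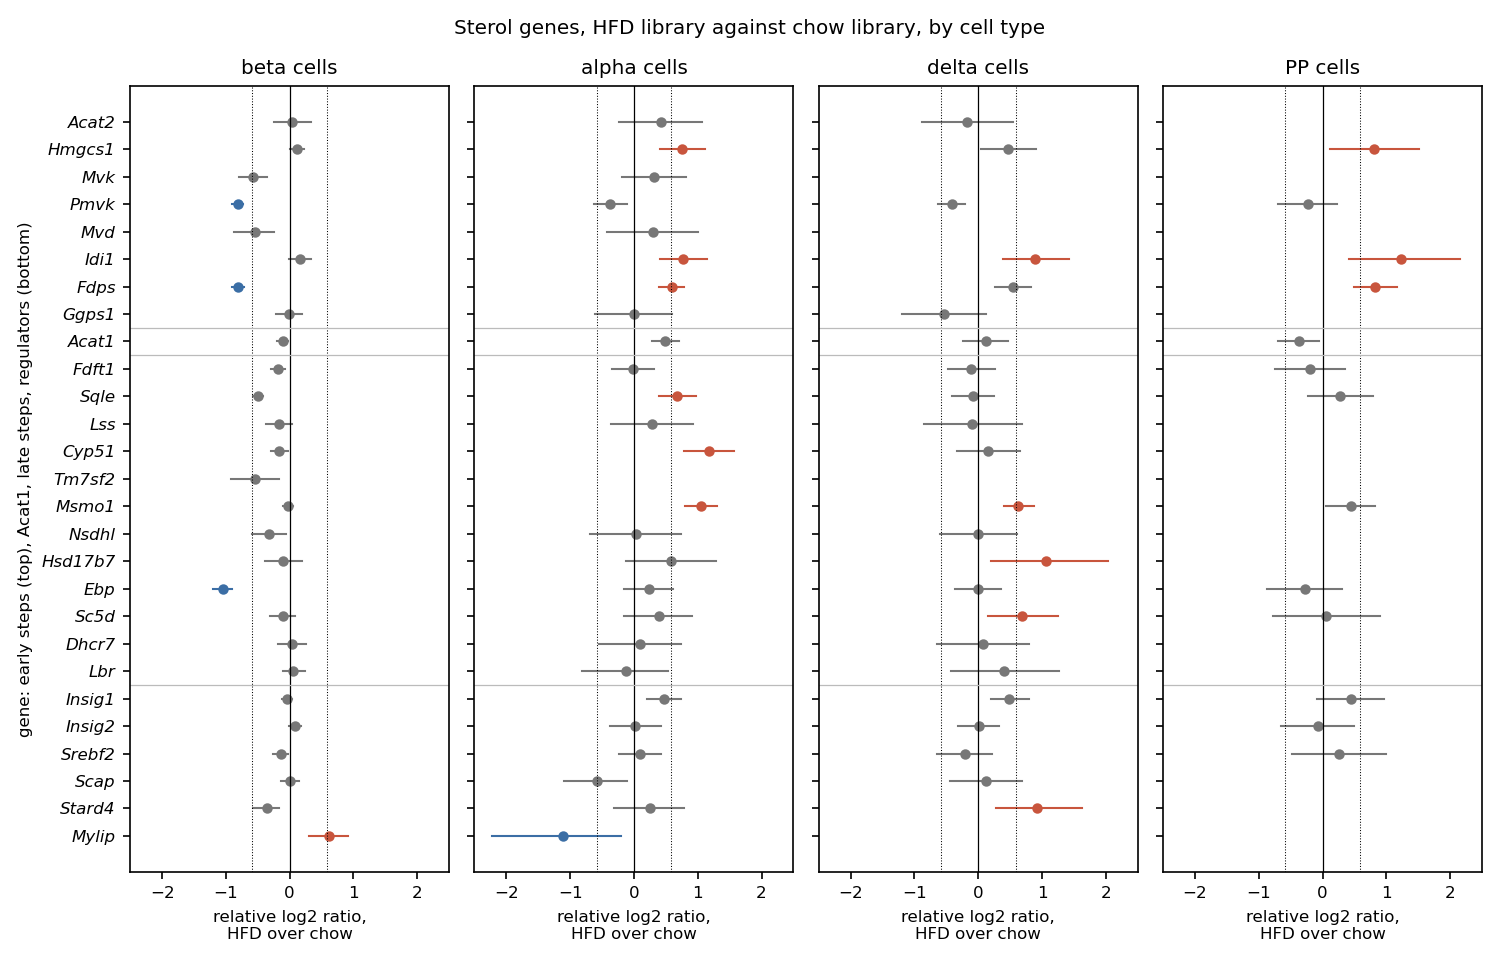
Relative log2 ratio of HFD over chow (x axis) for the 27 sterol genes (y axis: early steps, Acat1, late steps and regulators from top to bottom) in beta, alpha, delta and PP cells. Points are ratios, lines 95% counting intervals, dotted lines 1.5-fold, red points are higher and blue points lower past the fold, and genes under a summed count of 50 are left out. In alpha cells 6 genes lie to the right of the upper dotted line, and in beta cells Pmvk, Fdps and Ebp lie to the left of the lower one.

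Among the early steps, Fdps differed most between the types. Fdps (ENSMUSG00000059743) encodes farnesyl diphosphate synthase, which makes the branch-point isoprenoid for sterols, ubiquinone and prenyl groups. In beta cells it stood at 40.4 CPM (38.9 to 42.0) on chow and 26.4 CPM (25.0 to 27.9) on HFD, which gives a relative ratio of -0.81 (-0.91 to -0.71). In alpha cells it stood at 67.7 CPM (61.4 to 74.4) and 101 CPM (92.0 to 112), a ratio of 0.60 (0.40 to 0.79). In PP cells the levels were 43.4 and 82.0 CPM (0.83, 0.50 to 1.17), and in delta cells 46.7 and 71.6 CPM (0.54, 0.26 to 0.82). Fdps was therefore lower in the HFD library in beta cells and higher in the other 3 hormone types, with counting intervals of its levels that did not overlap in any of the 4. In endothelial cells it had 35.0 and 37.3 CPM, and the interval of its ratio spanned 0. The alpha value sat close to the fold, at 0.54 when the 5 cells richest in Fdps were left out of each library.

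Hmgcs1 (ENSMUSG00000093930), the synthase that makes HMG-CoA at the entry to mevalonate, was higher in HFD alpha cells, at 35.7 CPM (30.2 to 41.9) against 21.3 CPM (17.8 to 25.2) in chow alpha cells, a ratio of 0.76. In PP cells it had 31 and 48 counts, a ratio of 0.80 that was 0.19 with each cell thinned to 4000 UMIs. Delta cells had 21.0 and 30.7 CPM (0.47, 0.05 to 0.90). Beta cells had 19.0 and 23.5 CPM, which is 0.11 relative to all genes, with an interval of -0.00 to 0.23. The level was thus higher in the HFD library in every hormone type, and in beta cells most of that difference was shared by the median gene.

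Idi1 (ENSMUSG00000058258) encodes the isomerase that interconverts the basic isoprenoid units, and it had the highest ratio of an early step in delta and PP cells. Its levels were 19.2 CPM (15.9 to 22.9) and 32.5 CPM (27.3 to 38.5) in alpha cells, 12.9 CPM (9.52 to 17.0) and 25.3 CPM (20.5 to 30.8) in delta cells, and 6.26 CPM (3.71 to 9.89) and 15.8 CPM (11.2 to 21.7) in PP cells. The ratios were 0.77, 0.89 and 1.23 in that order. In these 3 types the intervals of the libraries did not overlap. In beta cells Idi1 stood at 8.91 and 11.4 CPM, a ratio of 0.16 (-0.01 to 0.33).

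Pmvk (ENSMUSG00000027952), the kinase that adds the next phosphate to mevalonate phosphate, was the early step that was lower in the HFD library in all 4 hormone types. In beta cells it had 50.5 CPM (48.8 to 52.2) in chow and 32.9 CPM (31.3 to 34.5) in HFD cells, a ratio of -0.81 (-0.90 to -0.73). Its ratio was -0.37 in alpha cells (56.7 and 43.5 CPM), -0.41 in delta cells (106 and 84.4 CPM) and -0.22 in PP cells (95 and 72 counts), the last with an interval of -0.69 to 0.23. In each hormone type Pmvk thus had the opposite sign to Idi1 and Hmgcs1.

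The other early enzymes did not pass the fold in any type where they were measured. Mvk, mevalonate kinase, came just short of it in beta cells, at 6.65 and 5.13 CPM (-0.57, -0.80 to -0.35), and Mvd, the decarboxylase after Pmvk, stood at 3.51 and 2.75 CPM (-0.55, -0.87 to -0.24). In alpha cells the same genes had positive ratios of 0.32 and 0.30 with intervals that spanned 0. Ggps1, which makes the pyrophosphate used for geranylgeranylation, stood at -0.01 in beta cells and 0.00 in alpha cells. Acat2, the cytosolic thiolase of the first step, stood at 0.04 and 0.42. Its counts are uncertain, since a near-identical gene, Acat3, lies beside it and how reads of such pairs were assigned is not given in the sources used here. Acat1, the mitochondrial thiolase, had 64.9 and 90.4 CPM in alpha cells (0.49, 0.29 to 0.70), and 33.5 and 35.6 CPM in beta cells (-0.11).

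**Figure D2:**
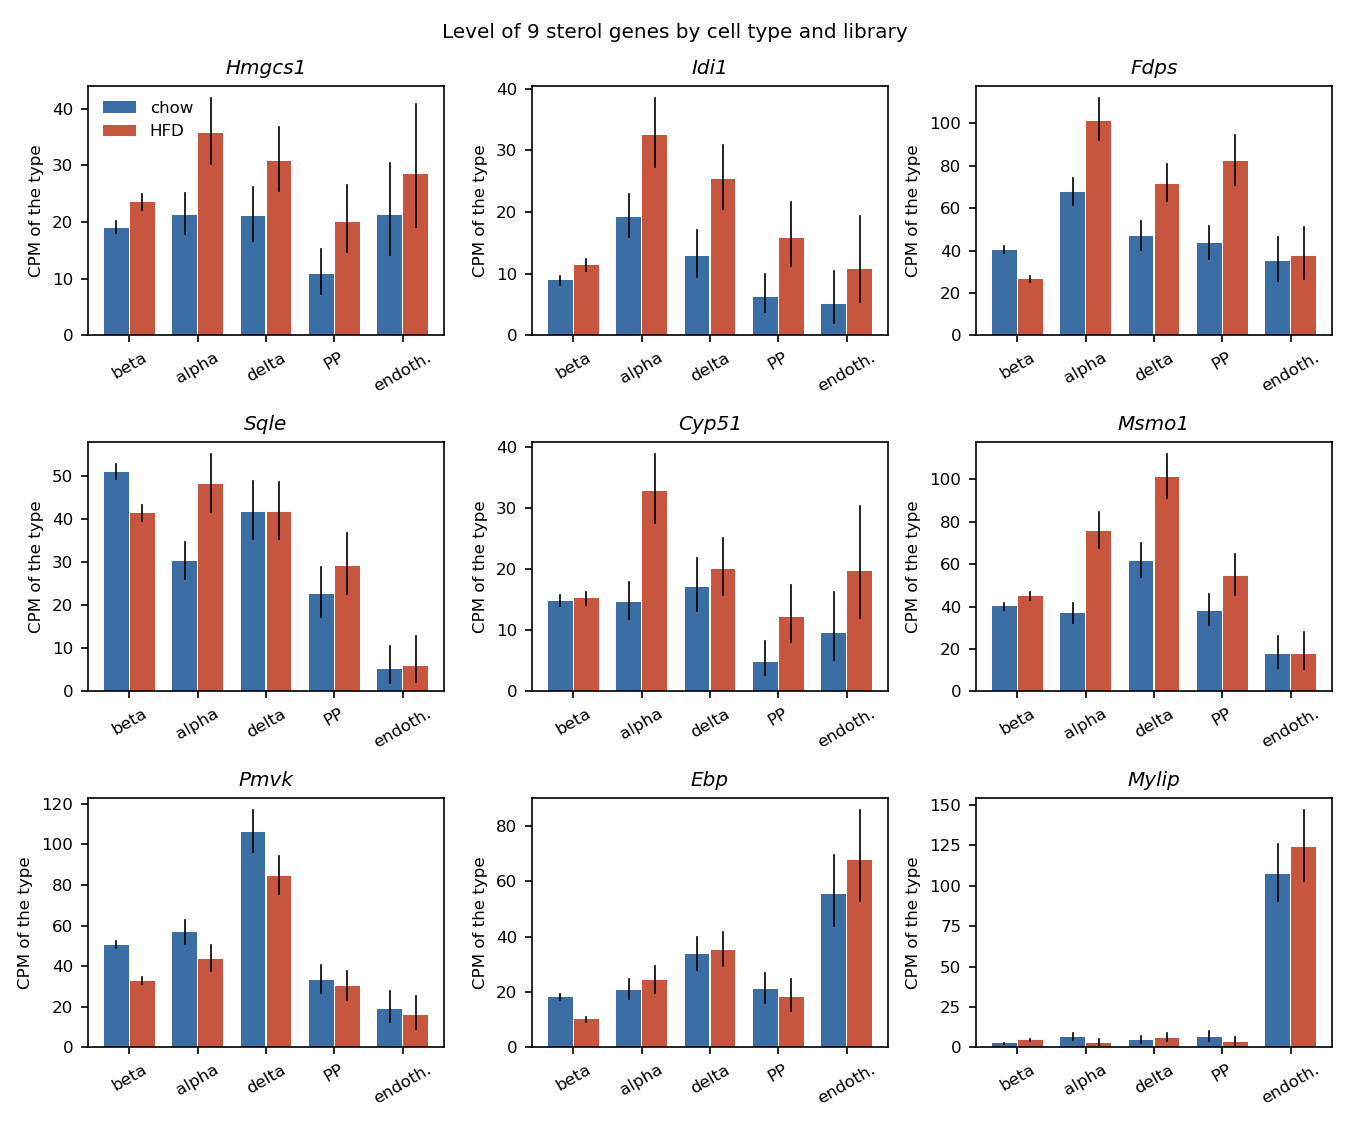
Level (y axis, CPM of the type, from 0) of 9 sterol genes in beta, alpha, delta, PP and endothelial cells (x axis) of the chow (blue) and HFD (red) library, with 95% Poisson intervals as black lines. Fdps is higher in HFD alpha cells (101 against 67.7 CPM) and lower in HFD beta cells (26.4 against 40.4 CPM), and Mylip is highest in endothelial cells of both libraries (107 and 124 CPM).

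Among the late steps, the genes for the first removals of methyl groups from lanosterol had the highest ratios in alpha cells. Cyp51 (ENSMUSG00000001467), the demethylase that acts on lanosterol, had 14.6 CPM (11.8 to 17.9) in chow and 32.8 CPM (27.5 to 38.8) in HFD cells, a ratio of 1.17 (0.79 to 1.57). Msmo1 (ENSMUSG00000031604), the next methyl oxidase, had 36.8 CPM (32.3 to 41.9) and 75.6 CPM (67.5 to 84.4), a ratio of 1.05 (0.80 to 1.30). Both were more than 2-fold higher in the HFD library. In beta cells the same genes stood near the median gene, at 14.8 and 15.2 CPM for Cyp51 (-0.16) and at 40.1 and 44.9 CPM for Msmo1 (-0.03).

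Msmo1 was also higher in HFD delta cells, at 61.7 CPM (54.1 to 70.1) and 101 CPM (91.2 to 112), a ratio of 0.63, and stood at 0.44 in PP cells (37.9 and 54.6 CPM). Cyp51 had a ratio of 0.15 in delta cells, with an interval of -0.34 to 0.66. Hsd17b7, a reductase of the same demethylation series, had 16 and 36 counts in delta cells, a ratio of 1.06 (0.20 to 2.03). In alpha cells it came just short of the fold at 0.58 (37 and 36 counts, -0.13 to 1.28). Sc5d, a late desaturase, stood at 12.3 and 21.1 CPM in delta cells (0.69, 0.16 to 1.25).

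Sqle (ENSMUSG00000022351), squalene epoxidase and a rate-limiting step of the late pathway, went opposite ways in alpha and beta cells. In alpha cells it had 30.2 CPM (26.1 to 34.8) in chow and 48.1 CPM (41.7 to 55.2) in HFD cells, a ratio of 0.68 (0.39 to 0.98). In beta cells it had 51.0 CPM (49.3 to 52.8) and 41.5 CPM (39.7 to 43.3), a ratio of -0.50 (-0.58 to -0.42) that did not pass the fold. Delta cells had 41.7 CPM in both libraries. Fdft1, squalene synthase, which acts just before Sqle, stood at -0.02 in alpha cells and -0.19 in beta cells. Neighbouring steps of the pathway thus did not share 1 ratio within a type.

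Ebp (ENSMUSG00000031168), the isomerase that shifts a double bond of the sterol ring, had the lowest ratio of any member in beta cells. It stood at 18.2 CPM (17.2 to 19.2) in chow and 10.1 CPM (9.22 to 11.0) in HFD cells, a ratio of -1.05 (-1.20 to -0.90). In the other types its ratios were 0.23 (alpha), -0.01 (delta), -0.27 (PP) and 0.26 (endothelial), each with an interval that spanned 0. The remaining late enzymes stayed within the fold in beta cells: Lss, which closes the rings, stood at -0.17, Nsdhl at -0.32, Sc5d at -0.11, Dhcr7, the last reductase, at 0.04, and Lbr, the lamin B receptor with sterol reductase activity, at 0.06. Tm7sf2, the other reductase of that step, had 162 and 94 counts in beta cells (-0.54, -0.92 to -0.16) and was not measured in any other type.

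Of the 6 regulators, Srebf2, Insig1, Insig2 and Scap stayed within the fold in every type where they were measured. Srebf2, the gene of SREBP2 itself, stood at 21.1 and 22.0 CPM in beta cells (-0.14) and at 29.4 and 31.3 CPM in alpha cells (0.10). Insig1 (ENSMUSG00000045294), a retention protein that is also a target of SREBP2, had ratios of 0.47 in alpha, 0.49 in delta, 0.44 in PP and 0.43 in endothelial cells, and -0.04 in beta cells. The intervals in PP and endothelial cells spanned 0. Insig2, its relative, stood between -0.07 and 0.19 in all 5 types. Scap, the escort, stood at 0.01 in beta cells and at -0.58 in alpha cells (120 and 52 counts, -1.09 to -0.11), just inside the fold. Stard4, a cytosolic sterol carrier, was higher in HFD delta cells (30 and 61 counts, 0.92, but 0.50 with thinned cells) and had 7.37 and 6.57 CPM in beta cells (-0.36).

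Mylip (ENSMUSG00000038175) encodes a ubiquitin ligase that removes lipoprotein receptors, and its gene is known as a target of the liver X receptors (LXR) and not of SREBP2. In beta cells it had 170 counts (2.53 CPM, 2.16 to 2.94) in chow and 219 (4.43 CPM, 3.86 to 5.05) in HFD cells, a ratio of 0.61 (0.31 to 0.91). In alpha cells it had 41 counts (6.45 CPM) and 12 (2.87 CPM), a ratio of -1.11 (-2.22 to -0.20). Both results rest on few counts. The beta value was between 0.52 and 0.56, under the fold, without removal of doublets, without barcodes that met more than 1 type rule, with beta cells at 40% insulin or more, with the endothelial rule first, and in beta cells with no heat shock UMI. Endothelial cells held the highest level by far, at 107 CPM (90.6 to 126) and 124 CPM (103 to 147). The sums of the 8 endothelial markers, all detected, moved the same way as Mylip. They were 23.0 and 32.6 CPM in beta cells and 30.9 and 23.2 CPM in alpha cells. Single markers did not all follow in beta cells, where Cdh5 had 1.06 and 0.910 CPM and Pecam1 1.88 and 1.86 CPM. Kdr had 1.86 and 4.04 CPM in beta cells, and in alpha cells Plvap had 28 and 5 counts and Cdh5 16 and 1. The part of endothelial RNA in the Mylip values was not tested, other than by the change of rule order given above.

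Summed over their members, the early steps stood at 139 CPM (136 to 142) in chow and 114 CPM (111 to 117) in HFD beta cells, a relative ratio of -0.49 (-0.53 to -0.44). The late steps stood at 184 and 175 CPM (-0.27, -0.31 to -0.23) and the regulators at 117 and 132 CPM (-0.02). In alpha cells the early steps stood at 201 and 256 CPM (0.36, 0.24 to 0.48), the late steps at 183 and 268 CPM (0.56, 0.44 to 0.68) and the regulators at 126 and 135 CPM (0.11, -0.05 to 0.27). By these relative sums the synthesis genes were lower in HFD beta cells and higher in HFD alpha cells. How the early and late sums differ rests on few genes. The early sum of beta cells leaned on Pmvk and stood at -0.33 without it. Pmvk (3390 and 1627 counts) and Fdps (2716 and 1308) held most of its 9329 and 5618 counts. Of the 8 early steps 3 lay above and 5 below the all-gene median in beta cells. In alpha cells 7 lay above and 1 below, and the member medians were 0.37 (early) and 0.29 (late), the reverse order of the sums.

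In delta cells 5 of 23 measured members were higher past the fold (Idi1, Msmo1, Hsd17b7, Sc5d and Stard4) against 4.87% of 8633 genes, and 0 were lower against 2.70%. Their late sum was 0.25 (0.13 to 0.38) and leaned on Msmo1: without it the sum was 0.09, with an interval of -0.06 to 0.24. Their early sum was 0.02 (-0.11 to 0.16), since Pmvk offset Idi1 and Fdps: without Pmvk it was 0.33 (0.15 to 0.51). In the delta cells with less than 1% Ppy (90 chow and 78 HFD cells) the late sum was 0.66, and Idi1, Msmo1 and Sc5d stood at 1.94, 1.24 and 1.69. No interval was computed for these ratios, which rest on few cells. Their counts are at most those of all delta cells, 49 and 97 for Idi1 and 47 and 81 for Sc5d. In PP cells 3 of 13 were higher (Hmgcs1, Idi1 and Fdps) against 7.77% of 5661 genes and 0 lower against 4.79%. Their early sum was 0.48 (0.27 to 0.70) and their late sum 0.22 (0.02 to 0.42). Without Fdps the early sum was 0.21 (-0.08 to 0.50), and without Msmo1 the late sum was 0.13 (-0.11 to 0.37). Other scales moved the share of higher among all past-fold genes from 64.3% to 78.8% in delta cells, and from 61.9% to 78.4% or 46.6% in PP cells. In endothelial cells 0 of 10 measured members were past the fold, against 6.84% of 5683 genes higher and 4.66% lower, and the interval of each of the 10 spanned 0.

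Other features differed between the libraries beside these results. In beta cells 2930 of 4369 chow cells but 2830 of 2953 HFD cells had no UMI of the heat shock genes Hspa1a and Hspa1b. Among those cells Ebp stood at -0.77, Pmvk at -0.65 and Fdps at -0.51, under the fold, and the early sum at -0.34 and the late sum at -0.22. The signs were thus the same in these cells and the ratios smaller. In alpha cells with less than 1% Ppy (590 and 285 cells) Cyp51 stood at 1.01, Msmo1 at 1.09, Hmgcs1 at 0.96 and the late sum at 0.62, about as large as in all alpha cells. With each cell thinned to 4000 UMIs, which sets depth equal, the early and late sums of alpha cells were 0.43 and 0.52. Marker sums of other cells differed as well. The 5 acinar markers, with Cela2a at 0 in HFD alpha cells, summed to 15.5 and 4.00 CPM in chow and HFD beta cells and to 29.0 and 6.46 CPM in alpha cells. The 4 ductal markers, all detected, summed to 87.4 and 21.9 CPM in beta cells and to 377 and 135 CPM in alpha cells. The lowest was Sox9 in beta cells, at 0.0298 and 0.121 CPM. In alpha cells it was Sox9 on chow (0.945 CPM) and Krt19 on HFD (0.239 CPM). In chow endothelial cells 1 of the 4 made up the whole sum of 601 CPM, so a sum need not speak for all 4. The 7 macrophage markers summed to 35.5 and 60.5 CPM in beta cells and to 66.3 and 36.4 CPM in alpha cells. Of the 7, 6 had a count in chow and 5 in HFD alpha cells, with Adgre1 at 0 in both. The part of these cells in the sterol results was not tested.

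In alpha cells the difference was also seen in the share of cells with several UMIs. With each cell thinned to 4000 UMIs, 20.6% of chow alpha cells (17.7 to 23.7, exact Clopper-Pearson) and 34.0% of HFD alpha cells (29.3 to 39.1) had 3 or more UMIs of the 20 synthesis genes. In beta cells the shares were 15.7% (682 of 4345 cells) and 13.7% (404 of 2953 cells), with intervals that overlapped between 14.6% and the upper bound of the HFD share, and the shares with 5 or more UMIs ran the other way, at 2.26% and 2.78%. Delta cells had 31.1% and 36.2%, PP cells 17 of 197 and 20 of 154 cells, and endothelial cells 27 of 165 and 24 of 120 cells, with overlapping intervals in each of these 3 types as well. Before thinning the shares were 49.1% and 73.9% in alpha cells and 70.6% and 65.9% in beta cells. The mean per thinned cell was 1.52 UMIs in chow and 2.11 in HFD alpha cells, and 1.31 and 1.20 in beta cells. Alpha cells with 0 UMIs made up 28.3% and 22.1%, for which no interval was computed. Fewer empty cells and more cells with many UMIs go with a higher mean, so these shares are not a result separate from it. No islet type is known to lack this pathway, so no type gives a background share.

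**Figure D3:**
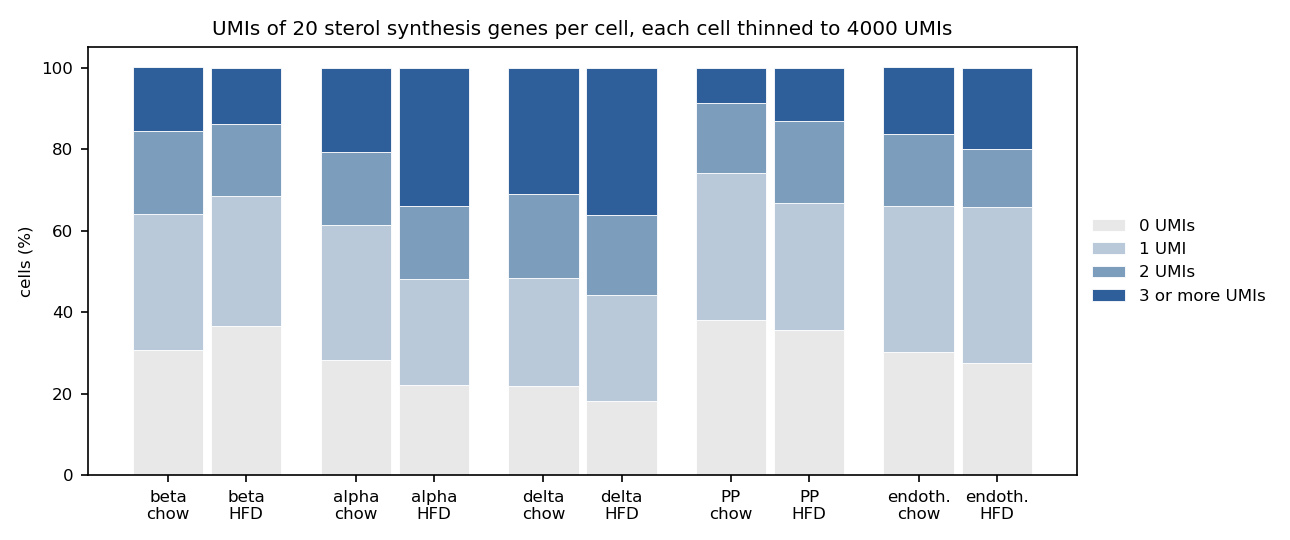
Share of cells (y axis, percent) with 0, 1, 2 or 3 and more UMIs of the 20 early and late synthesis genes, after each cell was thinned to 4000 UMIs, by cell type and library (x axis). The darkest part, 3 or more UMIs, is 20.6% in chow and 34.0% in HFD alpha cells, and 15.7% and 13.7% in beta cells, where the intervals overlapped.

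Between the types, the order of the levels depended on the hormones in the total. Hormone genes made up 60.8% of UMIs in chow beta cells and 60.2% in HFD beta cells, but 28.9% and 31.0% in alpha cells and 2.65% and 2.99% in endothelial cells. By CPM, alpha cells were highest in both libraries for 5 members (Hmgcs1, Mvk, Idi1, Fdps and Srebf2), delta cells for 6 (Pmvk, Fdft1, Msmo1, Nsdhl, Sc5d and Dhcr7), endothelial cells for 8 (Acat2, Mvd, Ggps1, Ebp, Lbr, Insig2, Stard4 and Mylip) and beta cells for 0. Per 1000000 UMIs without the 7 hormone genes, beta cells were highest in both libraries for 9 (Hmgcs1, Fdft1, Sqle, Lss, Tm7sf2, Insig1, Insig2, Srebf2 and Scap). On that scale the endothelial set kept Acat2, Ggps1, Ebp, Lbr, Stard4 and Mylip, alpha cells Mvk and Idi1, and delta cells Pmvk and Nsdhl. These 10 genes were highest in the same type on both scales and in both libraries, but not all by a clear margin. Without hormone genes, chow Mvk had 17.5 per 1000000 UMIs in alpha and 16.9 in beta cells. On the same scale HFD Ggps1 had 20.2 in endothelial cells, from 20 counts, and 18.7 in beta cells.

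Sqle was lowest in endothelial cells on both scales, at 5.11 CPM (2.05 to 10.5) in the chow and 5.89 CPM (2.16 to 12.8) in the HFD library, while 51.0 and 41.5 CPM were found in beta cells. RNA freed from beta cells may enter these values. If it scaled with the insulin UMIs of a type, it would give between 3.49% and 5.30% of the beta level, which is at most 8.06% of any member's level in delta cells and 7.75% in alpha cells. In chow endothelial cells it would be 38.6% of the Sqle level. Alpha and delta cells, the highest by CPM for Srebf2, had overlapping intervals in both libraries, at 29.4 and 24.9 CPM in the chow and 31.3 and 22.7 CPM in the HFD library.

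The study is about beta cells that differ in Cd63, a tetraspanin of endosomes, lysosomes and secretory vesicles, so the members were also described across beta cells by their Cd63 UMIs after thinning to 4000 UMIs. The chow library had 1455 cells with 0 to 1, 1737 with 2 to 4 and 1153 with 5 or more Cd63 UMIs, and the HFD library 2097, 770 and 86. These are ranges of a level and not types: 1634 chow and 1433 HFD cells had 1 or 2 Cd63 UMIs, at the lower border, and 703 and 110 had 4 or 5, at the upper one. In the chow library Fdps was higher in cells with more Cd63, at 29.9 CPM (25.6 to 34.7), 32.4 CPM (28.3 to 36.9) and 55.7 CPM (49.1 to 63.0). The log2 ratio of the highest over the lowest range was 0.90 (0.62 to 1.18), the highest of the 22 members measured there, and the median of 8027 genes was -0.22. Relative to that median Fdps stood at 1.11 (0.83 to 1.40), and the ratios that follow are given on this relative scale.

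Ebp went the same way, at 13.1, 17.6 and 22.3 CPM (0.99, 0.55 to 1.44), as did Acat1 at 28.2, 32.4 and 41.6 CPM (0.78, 0.47 to 1.09) and Pmvk at 44.2, 49.4 and 54.0 CPM (0.51, 0.25 to 0.76). Of the 22 measured members 14 stood above the median gene and 8 below, and the 3 genes lower in HFD beta cells were among the 14. How often other genes lower in HFD beta cells do so was not counted, and a link between the 2 differences was not tested. Insig1, at 56.4, 43.3 and 43.6 CPM, stood near the median gene (-0.15, -0.42 to 0.10), as did Hmgcs1 at 21.1, 19.6 and 17.3 CPM (-0.07, -0.49 to 0.35). The early sum stood at 0.48 (0.33 to 0.63), the late sum at 0.20 (0.07 to 0.32) and the regulators at 0.00 (-0.15 to 0.15). Fdps (174 and 257 counts in the lowest and highest range) and Pmvk (257 and 249) held most of the early 736 and 701 counts. The other measured early steps did not share the difference: Mvk (0.11), Idi1 (-0.04), Ggps1 (-0.17) and Hmgcs1 had intervals that spanned 0.

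Within the lowest and the middle Cd63 range of beta cells, Pmvk, Ebp and Fdps had relative ratios of HFD over chow below 0. The median gene stood at 0.06 and 0.12 there. The ranges did not set Cd63 equal between the libraries. In the lowest range 852 of 1455 chow but 962 of 2097 HFD cells had 1 Cd63 UMI rather than 0. In the middle range 782 of 1737 chow but 471 of 770 HFD cells had only 2. The part of Cd63 in these ratios was not tested. In cells with 0 to 1 Cd63 UMIs, Pmvk had 44.2 CPM (38.9 to 49.9) in the chow and 31.2 CPM (27.6 to 35.3) in the HFD library (-0.56, -0.82 to -0.31), and in cells with 2 to 4 it had 49.4 and 32.5 CPM (-0.72, -1.07 to -0.40). Ebp had 13.1 and 8.94 CPM in the lowest range (-0.61, -1.09 to -0.13), and 17.6 and 14.0 CPM in the middle one (-0.44), where the interval of -0.99 to 0.06 spanned 0. Fdps had 29.9 and 26.1 CPM in the lowest range (-0.26, -0.55 to 0.04) and 32.4 and 29.5 CPM in the middle one (-0.25, -0.62 to 0.10), with intervals that spanned 0 in both. The highest range held only 86 HFD cells, with 10 Pmvk, 11 Fdps and 8 Ebp counts, and its relative ratios were -0.97 (-2.12 to -0.14), -0.89 (-1.97 to -0.09) and -0.01 (-1.34 to 0.94). In the HFD library Ebp had a relative ratio of 1.43 across Cd63, with a lower bound of 0.09, and Fdps one of 0.32 (-0.76 to 1.13).

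**Figure D4:**
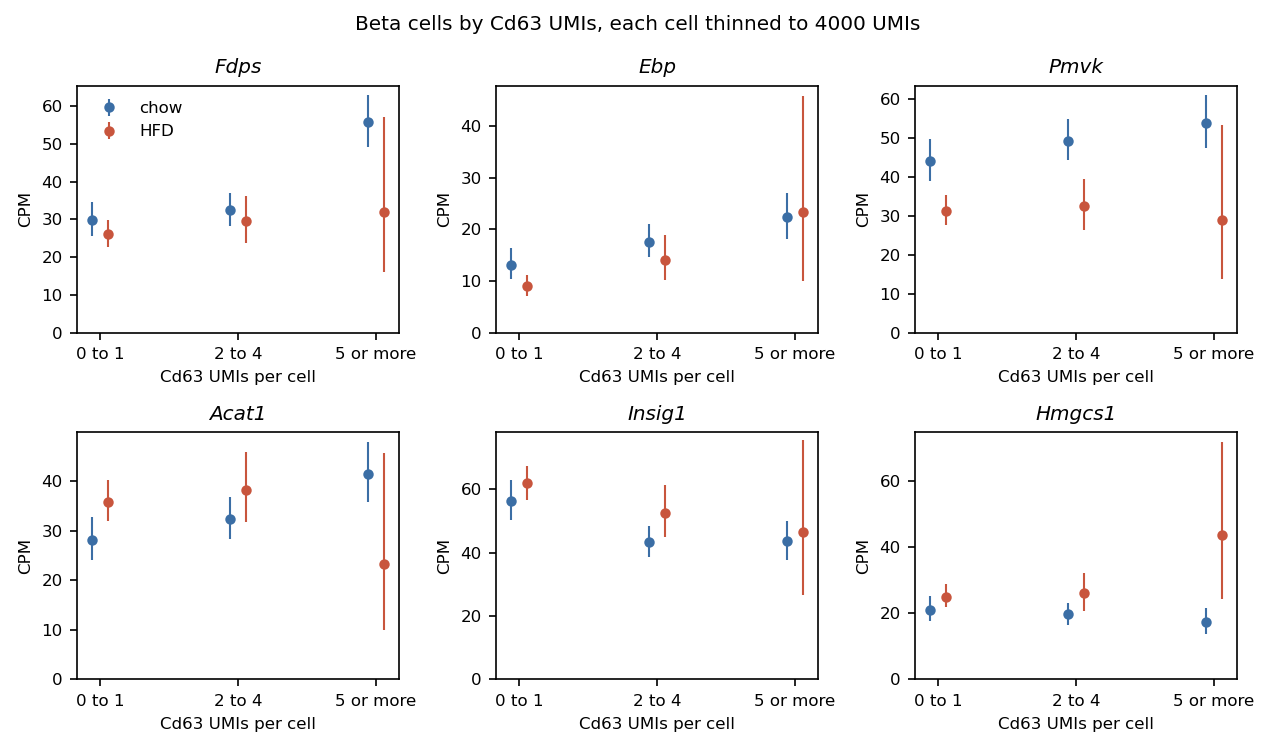
Level (y axis, CPM from 0) of 6 sterol genes in beta cells with 0 to 1, 2 to 4 and 5 or more Cd63 UMIs (x axis) after thinning to 4000 UMIs, in the chow (blue) and HFD (red) library, with 95% Poisson intervals. Fdps stands at 55.7 CPM in chow cells with 5 or more Cd63 UMIs and at 29.9 CPM in those with 0 to 1, and Pmvk is lower in the HFD library in the lowest and the middle range.

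Genes that take up, store and export sterol were described beside the synthesis genes, in a list of 15. In beta cells 4 (26.7%) were higher past the fold, against 4.45% of all genes, and 0 lower, against 9.12%, with a median relative ratio of 0.23. These were Lrp1, a receptor of remnant lipoproteins (0.714 and 1.37 CPM, 0.74), Apoe, a lipoprotein component (17.4 and 30.8 CPM, 0.63), Abca1, the cholesterol exporter (32.7 CPM, 31.4 to 34.1, and 57.7 CPM, 55.6 to 59.8, 0.62), and Lipa, the lysosomal lipase (2.69 and 4.67 CPM, 0.60). The 5 beta cells richest in Apoe held 48.1% of its chow and 49.4% of its HFD counts, so its level rests largely on a handful of cells. Lrp1 had only 48 and 68 counts, of which the 5 richest cells held 18.8% and 29.4%. For Lipa these shares were 7.18% and 18.2%, and for Abca1 1.27% and 1.30%. Abca1 and Apoe, like Mylip, are known LXR targets. Abcg1, another such exporter, stood at 0.23 (18.4 and 24.7 CPM), and Npc2, the sterol carrier of the lysosome, had the lowest ratio of the list at -0.56 (166 and 129 CPM). Macrophages also express Apoe, Abca1 and Lipa, and the sum of macrophage markers was higher in HFD beta cells as given above. The part of macrophage RNA in the values of this list was not tested.

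In alpha cells 0 of the 12 measured genes of the list were higher and 0 lower, against 4.50% and 4.92% of all genes, with a median of 0.00. The genes past the fold in beta cells did not share a sign there: Abca1 stood at -0.39 (21.3 and 16.0 CPM, -0.84 to 0.04), Apoe at 0.44 (-0.08 to 0.96) and Lrp1 at 0.12 (-0.41 to 0.63), each with an interval that spanned 0, and Lipa was under the count minimum. In delta, PP and endothelial cells the list had medians of 0.20, 0.07 and 0.01, with 1 gene higher in each (of 13, 7 and 10 measured) and 1 lower in PP cells, against the shares of all genes given above for these types.

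Of 8 genes that process SREBP or degrade its partners, 0 passed the fold in beta, alpha, delta and PP cells, and 1 was higher and 1 lower in endothelial cells. Of all genes, between 4.45% and 7.77% were higher and between 2.70% and 9.12% lower in the hormone types, so a count of 0 in a list this short is not read as a result. In beta cells they ran from Erlin1, a scaffold protein of the endoplasmic reticulum (4.70 and 4.06 CPM, -0.41), to the ubiquitin ligase Rnf139 (8.10 and 12.3 CPM, 0.40). Of 13 genes of the isoprenoid branches 0 passed it in any hormone type, and 1 was higher and 1 lower in endothelial cells. In beta cells they ran from Dhdds, which makes dolichol precursors (21.7 and 19.0 CPM, -0.39), to Pggt1b, a subunit of geranylgeranyl transferase (2.23 and 3.76 CPM, 0.55). With the same all-gene shares a count of 0 is again not read as a result. All 13 genes of these branches had higher ratios in beta cells than Fdps (-0.81). Fdps was picked for its low ratio, and only 9.12% of all genes were lower past the fold in beta cells. This order is therefore not read as a result either.

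Fatty acid synthesis, driven mainly by SREBP1, had no gene higher past the fold in beta or alpha cells. Of 12 genes 11 were measured in beta cells, where 0 were higher, against 4.45% of all genes, and 2 (18.2%) lower, against 9.12%: the desaturases Scd1 (1.10 and 0.728 CPM, -0.78) and Scd2 (58.4 CPM, 56.5 to 60.2, and 43.7 CPM, 41.8 to 45.5, -0.62). The highest was Acss2, an acetyl-CoA synthetase (7.75 and 10.6 CPM, 0.26). In alpha cells 0 of 10 were higher and 1 lower, against 4.50% and 4.92% of all genes, with a median of -0.12, where the sterol members had a median of 0.30. Srebf1, the gene of SREBP1, stood at -0.51 in beta cells (19.1 and 15.4 CPM) and -0.18 in alpha cells, and Scd2 had a ratio below 0 in all 5 types.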

How the data were processed

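Islet RNA of 2 pooled libraries, 1 per diet, was counted as UMIs. Raw UMI counts of each gene in each barcode were deposited as integers, not normalized by the authors, per the file headers and values. The submitters' processing notes name Cell Ranger 2.1.0. Genome build, annotation and cell calling: not given in the sources used here. The smallest barcodes held 3846 (chow) and 4017 (HFD) UMIs, with medians of 12414 and 13911.

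Barcodes with under 500 genes or over 10% mitochondrial UMIs (122 chow, 145 HFD) were removed. Scrublet (scanpy 1.11.5, Python 3.11.15) marked only 0.0313% and 0.0228% as doublets by its automatic threshold and so had not worked, and the top 5% of scores were removed instead (277 and 206 barcodes, tied scores kept). Types followed shares of UMIs, tested in order: insulin at least 20%, Gcg 5%, Sst 1%, Ppy 15%, then at least 10 UMIs of Plvap, Kdr and Flt1. The 186 chow and 212 HFD cells that met no rule were a mixture and were not compared. Counts were summed per library and type, with exact Poisson intervals for levels and exact binomial intervals for ratios (scipy 1.17.1). The calculation was tested on simulated counts.

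The 27 members, the partner lists and the markers were chosen with earlier results of these data known. All members were accounted for, those past 1.5-fold first, and of each partner list the genes with the highest and lowest ratio in beta cells were named. Srebf1, Abcg1 and the further genes given from these lists were chosen after their values were seen. Of the 9 genes listed for SREBP processing, 8 were in the gene table. Alternatives changed the scaling (edgeR 4.0.16 for TMM factors only), count minimum, doublets, type rules, depth and weighting of cells.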

Additional observations from a re-analysis of the deposited data

Results flagged for a closer look

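Fdps had ratios of opposite sign under the same contrast of diets, 0.60 in alpha cells and -0.81 in beta cells, and likewise 0.83 in PP cells against -0.81 in beta cells. Mylip had a ratio of 0.61 in beta cells and -1.11 in alpha cells, the latter from 41 and 12 counts. With 1 library per diet these differences between types were not tested. The Fdps sign held under every alternative run, from -0.87 to -0.51 in beta cells, from 0.54 to 0.71 in alpha cells and from 0.65 to 0.92 in PP cells. Mylip ran from 0.52 to 0.81 in beta cells and from -1.44 to -0.84 in alpha cells.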

How the results depend on the processing

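No paired analysis was possible because each diet has 1 library. The 19 results of members past the fold were recomputed in 256 comparisons: all 256 kept their direction and 244 stayed past 1.5-fold. Step sums are relative log2 ratios. In beta cells the early sum of -0.49 became -0.29 without the all-gene median, -0.31 without hormone genes in the totals, -0.38 with cells thinned, -0.42 as a mean over cells and -0.33 without Pmvk, and the late sum of -0.27 became -0.08, -0.10 (hormone genes), -0.23 (mean over cells) and -0.20 (without Sqle). The regulators of beta cells, at -0.02, changed sign to 0.18 and 0.16 on the first 2 scales. Without its most abundant member the early sum was 0.23 in alpha, 0.33 in delta and 0.21 in PP cells, the late sum 0.41 in alpha and 0.09 in delta cells, and the regulators -0.09 in alpha cells. An alternative chosen after seeing the data kept beta cells without heat shock UMIs, where the early sum was -0.34 and the late sum -0.22, and delta cells with little Ppy, at 0.32 and 0.66. The other such alternative, without the 5 cells richest in a gene, gave 0.54 for Fdps in alpha cells. Members higher in beta cells were 0 without doublet removal, without barcodes of more than 1 rule, at 40% insulin, with the endothelial rule first and without heat shock UMIs, since Mylip then missed the fold, and 5 were lower at 40% insulin. Lower in alpha cells were 2 without the median, with the endothelial rule first and as a mean over cells, and 0 at a summed count of 200 or without barcodes of more than 1 rule. Higher in delta cells were 1 at 200 counts and 3 with little Ppy, and lower 1 without a count minimum, as a mean over cells and with little Ppy. PP cells had 7 higher and 3 lower without a minimum, and 1 higher at 200 counts or with thinned cells, and endothelial cells 3 and 3 without a minimum. The fatty acid median of endothelial cells was -0.24 without a minimum. The synthesis sum relative to beta cells, on the log2 scale, was 0.25 in alpha, 0.52 in delta, -0.36 in PP and -0.09 in endothelial cells of the chow library, and -0.61, -0.25, -0.48 and -1.40 with hormone genes left out. In the HFD library it was 0.86, 0.91, 0.23 and 0.21, and 0.07, 0.09, 0.04 and -1.08 with hormone genes left out, with 0.08 for PP cells after thinning. The cause of these changes was not tested. Depth limits PP and endothelial cells, where 14 and 17 members were under the count minimum.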
